A study of Homo sapiens with 8 samples.

Results

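The experiment described here is the knock-down of TARBP2 in MDA-LM2 cells before any block of transcription. It takes 4 of the 8 arrays of the series: 2 from cells given a TARBP2 siRNA (siTARBP2) and 2 from control cells (siControl), all with RNA taken at 0 h. Each knock-down array carries RNA from a different TARBP2 siRNA, siTARBP2-1 or siTARBP2-2, so there is 1 array per siRNA. Both groups were MDA-LM2 cells transfected with Lipofectamine, left untreated by alpha-amanitin and harvested 48 h after transfection. The other 4 arrays come from both arms once they had spent 18 h with 10 µM alpha-amanitin, which blocks RNA polymerase II. MDA-LM2 is a derivative of the human breast cancer line MDA-MB-231 selected for metastasis to the lung.

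The sample titles call the control cells siControl, whereas the series text calls them mock-transfected. For mock-transfected controls, the effect of carrying an siRNA and that of losing TARBP2 cannot be told apart, with either TARBP2 siRNA. Nothing in the labels says that the control arrays came from separate cultures, and p-values here stand only for differences among arrays, which may partly be technical.

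TARBP2 is a protein that binds double-stranded RNA. Its best studied partner is Dicer, the enzyme that cuts microRNA precursors, and helps to load the small RNA onto an Argonaute protein. It also binds and inhibits the kinase PKR, which responds to double-stranded RNA. In metastatic breast cancer cells it has been described as a protein that binds hairpins in messenger RNAs and lowers the stability of those transcripts. The level of a transcript at 0 h depends on both its synthesis and its decay, so this comparison asks how far the loss of TARBP2 shifts transcript levels while synthesis goes on.

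The BeadChip carried 47321 probes, and 16893 of them (35.7%) were kept for having a detection p-value under 0.01 on both arrays of at least 1 of the 2 groups at 0 h. All 4 arrays detected 15954 of the kept probes. A further 246 were detected on both knock-down arrays and 1 control array, and 393 on both control arrays and 1 knock-down array. The remaining 300 kept probes were detected in one group and on neither array of the other. Just inside the limit, with a detection p-value between 0.005 and 0.01 in the better group, lay 1132 probes with a median normalised level of 5.95 on the log2 scale. Just outside it, between 0.01 and 0.02, lay 1388 probes with a median of 5.68.

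No file used here links a probe to its gene, so the results are given for probes and carry no gene names. The levels of TARBP2 and of the markers of the cell line could not be read, and neither the knock-down nor the identity of the cells was checked from these arrays. For the same reason the effect could not be described by pathway.

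The knock-down arrays detected 16580 and 17143 probes, against 16788 and 17619 on the control arrays. The upper quartile of the non-normalised signal was 251 and 266.1 on the knock-down arrays and 268.1 and 272.3 on the control arrays. After normalisation, the 2 knock-down arrays correlated across the kept probes at r = 0.9974 and the 2 control arrays at r = 0.9977. The 4 pairs of a knock-down and a control array correlated less closely, at r = 0.9940 to 0.9942. The log2 difference between a knock-down and a control array had an SD over probes of 0.241 to 0.244, compared with 0.161 between the knock-down arrays and 0.151 between the control arrays. The arrays of a group were thus closer to each other than to any array of the other group. These are descriptions over probes, which are not independent replicates.

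At 0 h the level of 1106 of the 16893 kept probes, or 6.55%, differed between knock-down and control cells. The test was limma's, with a Benjamini-Hochberg adjusted p under 0.05. Of these, 595 (3.52%) were higher in knock-down cells and 511 (3.02%) were lower. The differences were small. The median called increase was 1.35-fold and the median called decrease, by size, was 1.37-fold. Only 106 of the increases and 116 of the decreases exceeded 1.5-fold, and 5 and 9 had a fitted difference over 2-fold. Of these, 4 increases and 6 decreases were detected on at least 1 array of each group. The other increase was undetected in control cells and its bound fell short of 2-fold, whereas the other 3 decreases were undetected in knock-down cells with bounds over 2-fold. No kept probe had a fitted difference over 2-fold without being called, while 50 probes between 1.5-fold and 2-fold were not called. Over all kept probes the median size of the difference was 1.09-fold. An unadjusted p under 0.05 was reached by 4258 probes (25.2%).

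The fit used all 8 arrays, so that the 4 groups share one estimate of the spread. With the 4 arrays at 0 h normalised and fitted on their own, 851 probes (5.04%) were called, 427 (2.53%) higher and 424 (2.51%) lower after knock-down. The fits had 634 calls in common, which is 57.3% of the calls from 8 arrays and 74.5% of those from 4. The number of calls rested on each of the 4 arrays: without siTARBP2-1 it was 86, without siTARBP2-2 it was 95, and without control replicate 1 or 2 it was 104 or 94. It also fell to 614 and 616 without the siTARBP2-1 or siTARBP2-2 array at 18 h. Probes with a large change were chosen on these same arrays, so their calls in fits that leave out an array are a description. Of the 14 probes with a fitted difference over 2-fold, 13 were called in the same direction in all 4 fits that left out an array at 0 h.

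The split between increases and decreases depended on scaling. After quantile normalisation 53.8% of the calls were higher in knock-down cells. With arrays scaled by their median, 496 of 1256 calls (39.5%) were higher and 760 were lower. The median difference over all kept probes was -0.033 on the log2 scale under median scaling, compared with -0.002 after quantile normalisation.

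**Figure D1:**
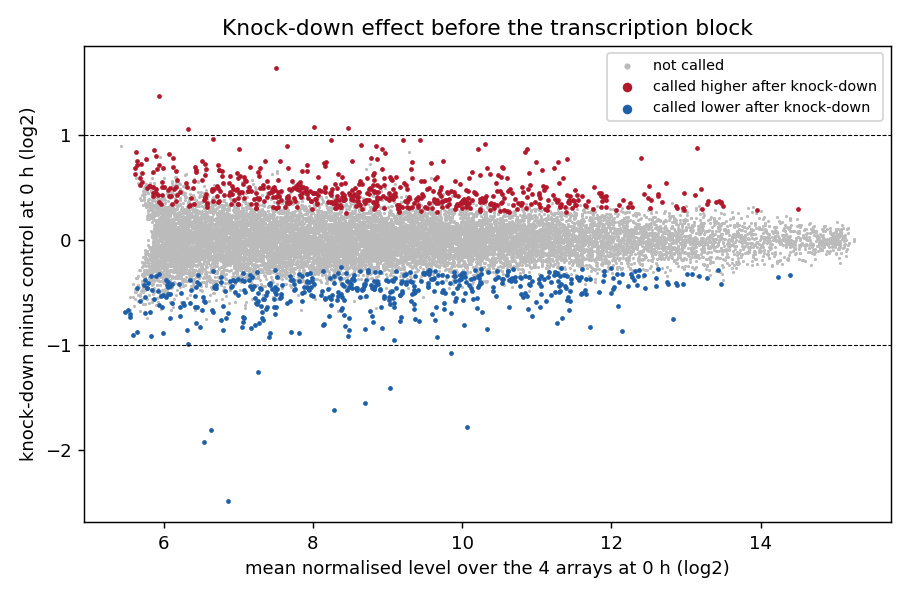
Each point is 1 of the 16893 kept probes. The horizontal axis is the mean normalised level over the 4 arrays at 0 h (log2), the vertical axis is knock-down minus control at 0 h (log2), red and blue points are called higher or lower at an adjusted p under 0.05, and dashed lines mark 2-fold. Calls occur at all levels and most lie well inside the dashed lines, beyond which there are 5 probes above and 9 below, 1 and 3 of them undetected in one group.

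Calls were spread over the whole range of levels. When the kept probes were divided into 5 equal bins by their mean level, 5% of the dimmest bin were called, then 6.63%, 8.11% and 7.43%, and 5.56% of the brightest bin. These shares come from quantile-normalised values. After median scaling of the arrays instead, they were 9.03%, 8.73%, 8.64%, 6.57% and 4.2% from the dimmest bin to the brightest. Among the brightest probes, above 10.93, 94 rose and 94 fell after quantile normalisation, and none of these passed 2-fold. The spread between replicate arrays narrowed with level. In the dimmest bin the log2 difference had an SD of 0.237 between the knock-down arrays and 0.224 between the control arrays, and in the brightest bin 0.110 and 0.103. The median size of the log2 difference between the groups, over called and uncalled probes alike, also narrowed with level. It was 0.160 in the dimmest bin and 0.094 in the brightest. How far this follows from the spread between replicate arrays was not tested.

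The 4 probes described next are the 2 largest increases and the 2 largest decreases among called probes that were detected on all 4 arrays at 0 h and whose groups did not overlap. Non-overlap alone is common here, since it held for 9656 of the kept probes (57.2%).

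ILMN_2134130 had the largest increase. Its normalised level was 8.16 with siTARBP2-1 and 8.49 with siTARBP2-2, against 6.70 and 6.66 in the control cells (log2). The deposited signals behind these values were 383.8 and 497.4 in knock-down cells and 181.2 and 180.4 in control cells. Both knock-down arrays lay more than 1 log2 unit above both control arrays, although the 2 siRNAs differed from each other more than the controls did. The level was 3.13-fold higher after knock-down, with a log2 difference of 1.64 ± 0.14 (SE; limma adjusted p = 0.00262).

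ILMN_2384785 showed the second increase, with more even values. It stood at 8.53 and 8.57 in knock-down cells and at 7.45 and 7.5 in control cells (log2). The 2 siRNAs gave 2.08-fold and 2.14-fold the mean of the controls. The groups were far apart relative to the spread within each, with a log2 difference of 1.08 ± 0.070 (SE; limma adjusted p = 0.00157).

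ILMN_2184373 had the largest decrease. Its level was 9.15 and 9.21 in knock-down cells, against 11.03 and 10.89 in control cells (log2). The deposited signals were 694 and 761.9 in knock-down cells and 2370.1 and 2218.5 in control cells. It is a fairly bright probe, at the 70th percentile of level, and its level was similar with both siRNAs. The level fell to 0.291-fold of control, a log2 difference of -1.78 ± 0.096 (SE; limma adjusted p = 0.000729).

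ILMN_1774685 fell to a similar extent. It stood at 7.41 and 7.53 in knock-down cells and at 9.18 and 9.0 in control cells (log2). The siRNAs gave 0.312-fold and 0.339-fold of the control mean, with a log2 difference of -1.62 ± 0.082 (SE; limma adjusted p = 0.000611). All 4 probes were also called when only the arrays at 0 h were fitted, with limma adjusted p-values of 0.0128, 0.0120, 0.00526 and 0.00870 in the order described.

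**Figure D2:**
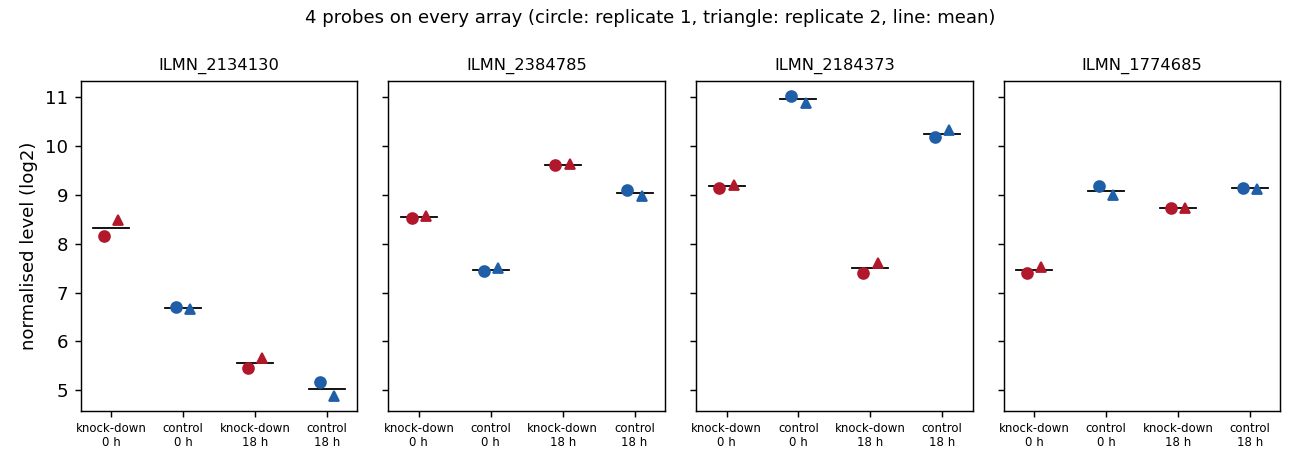
Normalised level (log2) of 4 probes on each of the 8 arrays, knock-down in red and control in blue, with circles for replicate 1 (siTARBP2-1 in knock-down cells), triangles for replicate 2 and a line at the mean of each group. At 0 h the knock-down arrays lie above the controls for the 2 probes on the left and below them for the 2 on the right, with log2 differences of 1.64, 1.08, -1.78 and -1.62.

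The 12 largest increases chosen in the same way, these included, ranged from 1.84-fold to 3.13-fold and the 12 largest decreases, by size, from 1.84-fold to 3.43-fold. Of these, 3 increases and 6 decreases passed 2-fold. The gap between the nearest knock-down and control arrays was 0.75 to 1.46 log2 units among the increases and 0.72 to 1.68 among the decreases. The median level was 8.56 for the probes that rose and 8.59 for those that fell (log2). The levels ran from 6.66 to 13.14 for the first and from 7.27 to 10.07 for the second. Detection on all 4 arrays at 0 h was required of these probes, so their levels depend on that filter. The same arrays at 0 h chose these probes, so their gaps and their calls in further fits of those arrays are a description. All 24 were called with the 4 arrays alone, and 22 of the 24 were called in the same direction in each of the 4 fits that left out an array at 0 h.

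**Figure D3:**
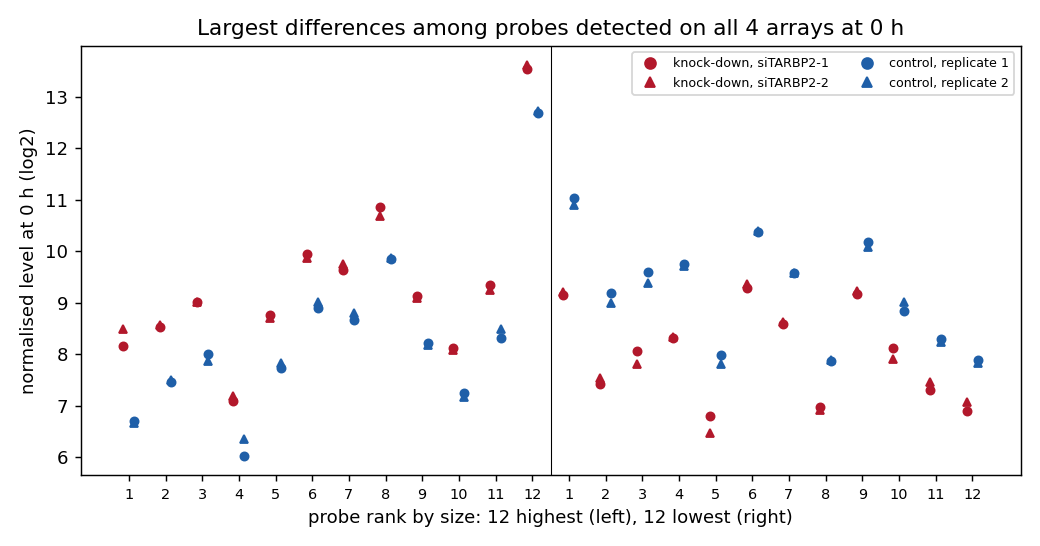
Normalised level at 0 h (log2) of the 12 probes with the largest increases (left) and the 12 with the largest decreases (right), ranked by size. Red marks are the knock-down arrays and blue marks the control arrays, with circles and triangles for replicates 1 and 2. Non-overlap of the groups was required of these probes. The nearest red and blue marks are at least 0.72 log2 units apart.

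Because each TARBP2 siRNA was measured on a single array at 0 h, its own effect has no replicate. The siTARBP2-1 array had 93 probes more than 1.5-fold above both control arrays and 142 more than 1.5-fold below both. The siTARBP2-2 array had 100 above and 136 below. These counts share the control arrays. Set directly against each other, the 2 siRNAs differed by over 1.5-fold on 79 kept probes (0.468%), of which 37 were higher with siTARBP2-1 and 42 with siTARBP2-2. The 2 control arrays differed that much on 55 probes (0.326%). Differences over 2-fold were found on 4 probes between the siRNAs and on 2 between the controls. By comparison, each pair of a knock-down and a control array differed by over 1.5-fold on 2.48% to 2.6% of the kept probes.

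Some probes were detected in only 1 of the 2 groups. Of the 47321 probes, 83 were detected at 0 h on both knock-down arrays and on neither control array. Another 217 were detected on both control arrays and on neither knock-down array. The numbers of probes detected per array, given above, overlapped between the groups, and their part in these counts was not tested. Most were close to the limit: the median level in the group that detected them was 6.02 and 5.97 (log2). At 18 h the level was higher in knock-down cells for 50 of the 83 (60.2%). It was lower in knock-down cells at 18 h for 108 of the 217 (49.8%). Of the 83 probes, 29 were called higher in knock-down cells, and of the 217, 32 were called lower. These probes passed the detection filter through the group in which they are high, so the direction of their calls was set by that choice, and the counts are a description beside the 3.52% and 3.02% of all kept probes. A probe that is undetected in a group has only a bound there, set on each array at the dimmest detected level or at the probe's own level, whichever is higher. On that basis the largest increase was at least 1.79-fold, or at least 1.37-fold without background correction. The normalised means behind it were 6.62 in knock-down cells and 5.25 in control cells (limma adjusted p = 0.00157). The largest decrease was at least 4.77-fold, or at least 2.79-fold without background correction. Its means were 5.63 in knock-down cells and 8.11 in control cells (limma adjusted p = 7.48e-05). These p-values belong to the fitted differences between the means, not to the bounds. Of the 29 called increases, 2 had a bound over 1.5-fold and 0 over 2-fold. Of the 32 called decreases, 4 had a bound over 1.5-fold and 3 over 2-fold.

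The arrays taken after 18 h in alpha-amanitin measured the knock-down effect again with the same 2 siRNAs. The difference at 18 h shares no array with that at 0 h, but the arrays at 18 h entered the normalisation and the estimate of spread behind the 1106 calls. Of the 595 probes called higher at 0 h, 221 (37.1%) were called higher in knock-down cells at 18 h, 47 (7.90%) were called lower and 327 were not called. Of the 511 called lower, 228 (44.6%) were called lower at 18 h, 59 (11.5%) higher and 224 were not called. Over all kept probes, 17% were called higher in knock-down cells at 18 h and 14.9% lower. The shares called in the same direction lay above these values and the shares called in the opposite direction below them, and the overlap itself was not tested. The probes called in the same direction at both times were 7.71% of the higher calls at 18 h and 9.09% of the lower ones. The 449 probes with the same call at both times became 59 to 66 without any one array at 0 h, and 232 or 218 without siTARBP2-1 or siTARBP2-2 at 18 h. As a share of the calls at 0 h they were 40.6%. Without any one array at 0 h both counts fell and the share rose, and the cause was not tested. With each time normalised and fitted on its own 4 arrays, so that no array served both, 127 of 427 higher calls (29.7%) and 153 of 424 lower calls (36.1%) had the same call at 18 h, where 13.2% of all kept probes were called higher and 11.9% lower.

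The direction of the difference was the same at 18 h for 425 of the 595 higher probes (71.4%) and for 367 of the 511 lower probes (71.8%). Only 554 of the 595 and 471 of the 511 were detected on both arrays of at least 1 group at 18 h. The counts above include the others. Of the detected probes, 391 higher and 348 lower ones kept their direction. At 18 h, 213 and 220 of them had the same call, and 47 and 54 the opposite call. Over all kept probes 51.8% had a positive difference at 18 h. The median log2 difference of the higher probes was 0.43 at 0 h and 0.16 at 18 h, and that of the lower probes -0.45 at 0 h and -0.18 at 18 h. Values at 0 h chose these probes, so their sizes at the 2 times are a description. Over all kept probes, the knock-down effect differed between the times for 14.6% by limma's interaction term. Of the 4 probes over 2-fold higher at 0 h and detected in both groups, 2 were detected at 18 h and both were called higher. Of the 6 such probes over 2-fold lower, 6 were detected at 18 h and 5 were called lower.

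**Figure D4:**
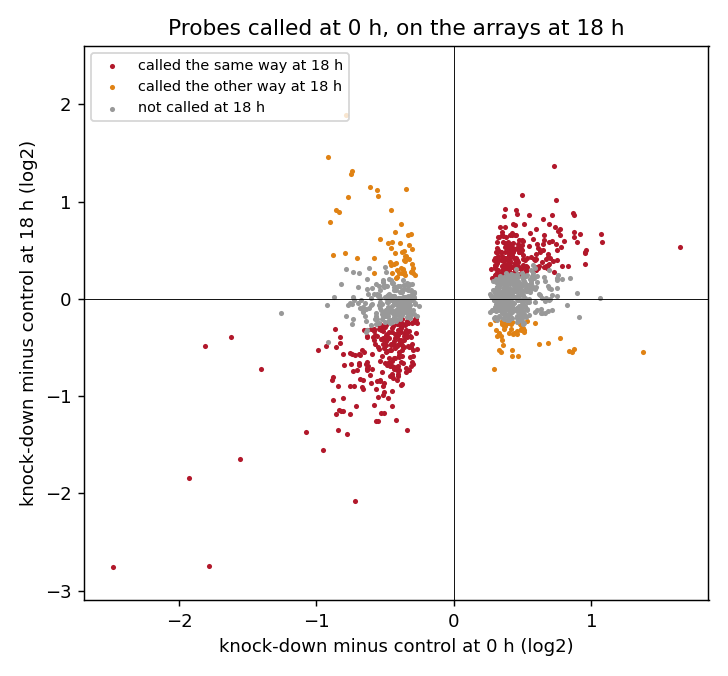
Each point is 1 of the 1106 probes called at 0 h, placed by its knock-down minus control difference at 0 h (horizontal, log2) and at 18 h in alpha-amanitin (vertical, log2). Red points were called in the same direction at 18 h (449), orange points in the other direction (106), and grey points were not called at 18 h. Probes that were not detected at 18 h are included.

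The 4 named probes behaved differently from each other at 18 h. ILMN_2134130 was not detected on any of the 4 arrays at 18 h, so it has no fold there. ILMN_2384785 stood at 9.61 and 9.64 in knock-down cells at 18 h and at 9.10 and 8.98 in control cells (log2). It was still higher after knock-down, by 1.5-fold (limma adjusted p = 0.00186). ILMN_2184373 stood at 7.41 and 7.61 in knock-down cells and at 10.18 and 10.33 in control cells at 18 h (log2), a larger gap than at 0 h. Its level in knock-down cells was 0.149-fold of control (limma adjusted p = 6.07e-05). ILMN_1774685 was at 8.74 on both knock-down arrays at 18 h, against 9.15 and 9.12 on the control arrays (log2). It was lower by much less than at 0 h, at 0.761-fold of control (limma adjusted p = 0.0114).

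Among the 24 probes with the largest differences at 0 h, 9 of the 11 increases still detected at 18 h were called higher then. Of the 12 decreases, all detected at 18 h, 9 were called lower at 18 h and 1 was called higher.

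**Figure D5:**
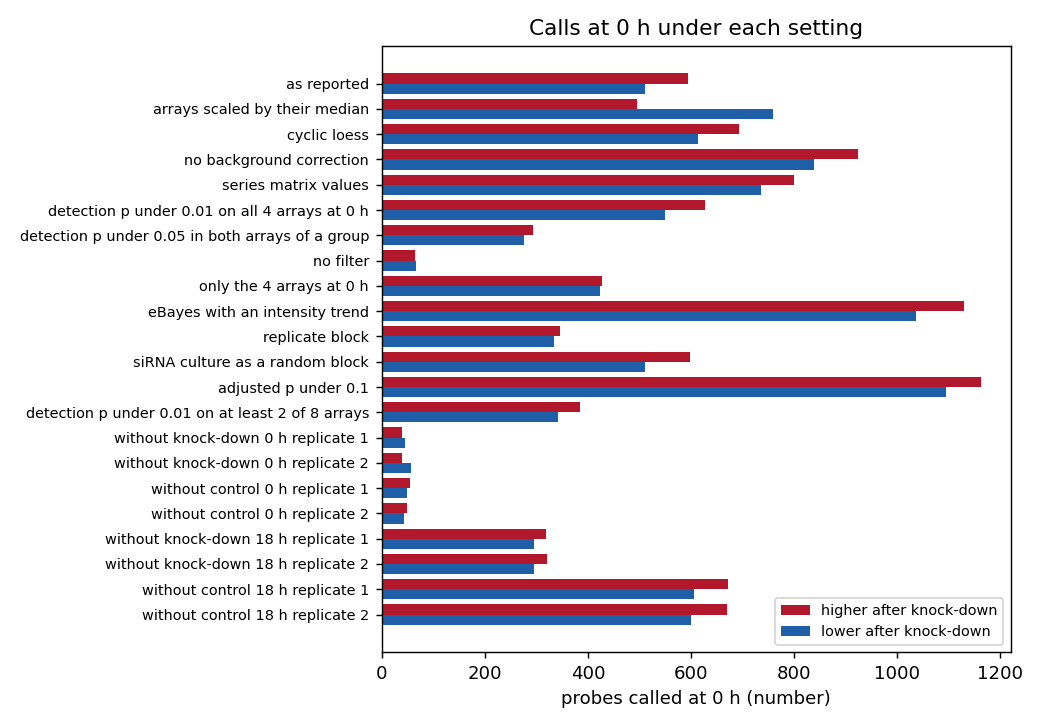
Number of probes called at 0 h (horizontal axis) under each setting, higher after knock-down in red and lower in blue, with the reported setting at the top. Bars are shortest where one of the 4 arrays at 0 h is left out (86 to 104 calls in all) and where undetected probes are kept (131), and blue exceeds red most clearly when arrays are scaled by their median.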

How the data were processed

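Per the file headers, the authors deposited probe signals that had not been normalised (linear intensity) and the detection p-value of each. They also deposited a normalised intensity table, in which the sorted values of all arrays nearly coincide. The submitters' processing notes name lumi, with no version or settings. Another deposited table holds stability ratios per accession; it gives no level at 0 h and was not used.

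Signals were background-corrected and quantile-normalised over the 8 arrays with neqc (offset of 16) in limma 3.58.1 and R 4.3.3. Probes with a detection p under 0.01 on both arrays of at least 1 group at 0 h were kept. A linear model with 1 coefficient for each of the 4 groups was fitted to the 8 arrays. The residual degrees of freedom were 4, with a further 3.43 from eBayes. Tests were 2-sided. The number of arrays limits the precision. Quantile normalisation gives all arrays one distribution, so changes are relative to other transcripts. The procedure was tested on simulated arrays.

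The rule for named genes took TARBP2, APP and ZNF395, the 12 largest increases and decreases that were called, detected on all 4 arrays at 0 h and did not overlap, called probes with only a bound, and called members of gene lists. Without gene names it was applied to probes, of which the first 2 in each direction are named. The comparison, lists and rule were chosen with earlier results of these data known. The gene lists, including markers of other cell types, could not be run.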

Additional observations from a re-analysis of the deposited data

Results flagged for a closer look

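The knock-down effect at 18 h in alpha-amanitin differed from that at 0 h for 3 of the named probes, by limma's interaction term. These probes were chosen for their large differences at 0 h, and the same arrays enter the interaction term, so the p-values are not independent of that choice. For ILMN_2384785 the log2 difference between knock-down and control cells was 1.08 at 0 h and 0.58 at 18 h, a change of -0.49 ± 0.099 (SE; limma adjusted p = 0.023). For ILMN_2184373, which was lower after knock-down at both times, it was -1.78 at 0 h and -2.74 at 18 h, a change of -0.97 ± 0.14 (SE; limma adjusted p = 0.0102). For ILMN_1774685 it was -1.62 at 0 h and -0.39 at 18 h, a change of 1.23 ± 0.12 (SE; limma adjusted p = 0.00445).

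Of the 1025 probes called at 0 h that were detected on both arrays of at least 1 group at 18 h, 361 (35.2%) differed between the times by the same test, against 14.6% of all kept probes. Among these, the effect at 18 h lay below that at 0 h for 191 of 554 probes called higher and above it for 5. It lay above that at 0 h for 139 of 471 probes called lower and below it for 26. The arrays at 0 h both chose these probes and enter the interaction term, so these counts are a description.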

How the results depend on the processing

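The 4 named probes kept their direction and an adjusted p under 0.05 in all 20 alternatives run for them. Their log2 differences ranged from 1.20 to 1.80 for ILMN_2134130 (limma adjusted p up to 0.0396), from 0.86 to 1.10 for ILMN_2384785 (up to 0.0334), from -1.87 to -1.66 for ILMN_2184373 (up to 0.0233) and from -1.71 to -1.34 for ILMN_1774685 (up to 0.0201). These 4 probes were chosen for large differences on the same arrays that the alternatives use, so their calls and ranges are a description. The 1106 calls at 0 h became 1762 without background correction, 2166 with an intensity trend in eBayes, 2256 at an adjusted p under 0.1, 569 with detection p under 0.05, and 131 with no filter. They became 726 with detection on at least 2 of 8 arrays, a filter chosen after seeing the data. With a replicate block there were 681. The replicate numbers do not pair the arms by the labels, and the deviations of same-numbered arrays at 0 h correlated across probes at 0.020. Without each array in turn the count ran from 86 to 1277. At 18 h, leaving out siTARBP2-1 or siTARBP2-2 gave 614 or 616. In each case the cause was not tested. Median scaling, cyclic loess, the authors' normalised values, detection on all 4 arrays and the 4 arrays alone left the count within 1.5 times, at 851 to 1535. A random block for same-numbered arrays of an arm at 0 h and 18 h gave 1109. It treats them as a shared culture, which the labels do not state, and its consensus correlation was -0.0068. The authors' normalised values kept 1059 of the 1106 calls, which is 69% of the 1535 calls they gave.

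The 449 probes with the same call at 0 h and 18 h became 689 without background correction and 280 with each time fitted alone. They ran from 59 to 417 without each array in turn: 59 and 66 without siTARBP2-1 or siTARBP2-2 at 0 h, 63 and 62 without control replicate 1 or 2 at 0 h, and 232 and 218 without siTARBP2-1 or siTARBP2-2 at 18 h. As a share of the calls at 0 h, 40.6% became 68.6% and 69.5% without siTARBP2-1 or siTARBP2-2 at 0 h, and 60.6% and 66% without control replicate 1 or 2. A fit that leaves out an array has 1 sample in that group, assumed to vary like the others. With a detection p under 0.05, also chosen after seeing the data, 211 probes in place of 83 were detected in knock-down cells only at 0 h, and 320 in place of 217 in control cells only. The alternatives for gene lists were not run, since probes carry no gene names.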

Other observations

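The probes detected in only one group at 0 h fared unevenly on the arrays at 18 h. Of the 83 detected on both knock-down arrays and neither control array at 0 h, 6 (7.23%) showed the same pattern at 18 h, 1 the reverse, 29 were detected on all 4 arrays and 27 on none. Their normalised level was higher in knock-down cells at 18 h for 50 (60.2%). Of the 217 detected on both control arrays and neither knock-down array at 0 h, 3 (1.38%) showed the same pattern at 18 h, 16 the reverse, 42 were detected on all 4 arrays and 98 on none. Their level was lower in knock-down cells at 18 h for 108 (49.8%).

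Over all 47321 probes, detection in a single group also ran the other way at 18 h, with 600 probes (1.27%) detected on both knock-down arrays and neither control array and 94 (0.199%) the reverse. The number of probes detected per array at 18 h also differed: 16617 and 16920 on the knock-down arrays and 16220 and 15541 on the control arrays. The part of the number detected per array in these counts was not tested.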
